A study of Mus musculus with 8 samples.

Results

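The lipid absorption and lipoprotein genes described here are 37 mouse genes chosen by name for their known roles in taking up dietary lipid in the gut and sending it out again in lipoproteins. All 37 were present among the 36161 gene names on the arrays, all 37 were well above background on all 8 arrays, and all 37 were among the 25354 gene names tested. Each gene was read from 1 probe, a strand of 60 DNA bases, and 8 of the 37 had several probes, of which the brightest was used. RNA came from the small intestine of mice harvested at stage E18.5, shortly before birth, with 4 control and 4 mutant samples, each on a single-colour Agilent array of its own. Control replicates 1, 3 and 4 were Rfx6 fl/+ and control replicate 2 was Rfx6 fl/fl, where fl marks an allele flanked by target sites of the Cre recombinase. The mutants were Rfx6 fl/fl Ngn3-cre, so every sample of both groups carried at least 1 floxed Rfx6 allele, and Cre is named for the mutants alone. Cre and the deletion of Rfx6 therefore cannot be told apart. The Ngn3 driver acts in the progenitors of endocrine cells, and the deletion is not directed at the absorptive enterocytes in which most of the 37 genes are known to work. In the description field of the labels, mutants 2, 3 and 4 carry the name of another Rfx gene, but their titles and sources give Rfx6, which was followed. The labels do not say whether a sample was 1 embryo or a pool, and p-values measure the spread between these samples only.

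Fat from the diet reaches the enterocyte as fatty acids, monoglycerides and cholesterol. Fatty acids are bound in the cytosol, activated to acyl-CoA and joined again to glycerol at the endoplasmic reticulum, where the triglyceride is loaded onto apolipoprotein B and leaves the cell as a chylomicron, or waits in a lipid droplet. Cholesterol enters through a dedicated importer, is partly pumped back into the lumen and is partly esterified for export. In the mouse much of this machinery is made before birth, ahead of the fat-rich milk diet. The endocrine cells of the gut release hormones that act on digestion.

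The stretches of 250 bases before the transcription start are shown for 4 members, from RefSeq sequence of build GRCm38.p6 and reading 5′ to 3′ on the strand of each gene. Slc27a2 is shown because it had the largest difference of the 37, Fabp1 because its window held matches to 3 of the searched motifs, and Abcg5 with Abcg8 because this pair starts head to head. Capitals mark matches, on either strand, to the motifs searched: DR1, the repeat bound by Hnf4 and Ppar receptors (AGGNCA, any base, AGGNCA); the X-box bound by Rfx factors (GTTNCC, the bases AT, GGNAAC) and the single arm of it, GTTGCC; the sterol response element bound by Srebp factors (TCACNCCAC); the TATA box (TATAAA); and the CCAAT box (CCAAT). The window chr2:126552774-126553023 before Slc27a2 (plus strand) held no match.
Slc27a2: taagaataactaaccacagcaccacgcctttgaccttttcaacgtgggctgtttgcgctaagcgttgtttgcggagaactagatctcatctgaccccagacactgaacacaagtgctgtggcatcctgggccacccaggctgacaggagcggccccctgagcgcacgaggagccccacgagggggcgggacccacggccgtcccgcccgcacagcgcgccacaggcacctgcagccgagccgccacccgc
The window chr6:71199629-71199878 before Fabp1 (plus strand) held matches to DR1, the X-box arm and TATA.
Fabp1: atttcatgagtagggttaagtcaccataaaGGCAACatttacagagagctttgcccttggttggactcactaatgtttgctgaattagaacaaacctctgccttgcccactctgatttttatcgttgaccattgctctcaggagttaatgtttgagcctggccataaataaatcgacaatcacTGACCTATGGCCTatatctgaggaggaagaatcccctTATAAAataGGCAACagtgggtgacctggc
The window chr17:84683012-84683261 before Abcg5 (minus strand) and the window chr17:84682871-84683120 before Abcg8 (plus strand, the upstream one of 2 annotated starts) shared 109 bases, since the starts lie 110 bases apart on opposite strands. The TATA match in both is the same stretch of 6 bases, chr17:84683090-84683095.
Abcg5: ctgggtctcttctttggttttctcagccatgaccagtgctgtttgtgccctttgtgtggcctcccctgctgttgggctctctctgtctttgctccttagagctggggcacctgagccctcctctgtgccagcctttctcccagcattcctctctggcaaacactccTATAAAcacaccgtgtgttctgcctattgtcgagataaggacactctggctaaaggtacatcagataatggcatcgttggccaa
Abcg8: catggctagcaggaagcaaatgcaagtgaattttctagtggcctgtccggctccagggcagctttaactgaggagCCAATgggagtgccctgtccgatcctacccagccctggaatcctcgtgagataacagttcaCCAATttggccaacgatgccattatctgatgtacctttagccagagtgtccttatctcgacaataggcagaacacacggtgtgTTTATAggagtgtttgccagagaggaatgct
RefSeq windows were matched by symbol for 31 of the 37 members and were also searched for 27018 genes in all. The DR1 motif was in the window of 2 of 31 members, Apoc2 and Fabp1, against 0.400% of all genes. The X-box arm was in 5 of 31 (16.1%) against 11.8% of all genes, TATA in 8 of 31 (25.8%) against 14.3%, and CCAAT in 12 of 31 (38.7%) against 37.5%. The full X-box and the sterol response element were in the window of 0 of 31 members, against 0.133% and 1.23% of all genes. These are descriptions of letters in a window, not of binding.

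Some facts about the arrays bear on every value below. The 75th percentile of spot intensity, to which each array was scaled, was 788 to 1027, and the share of probes detected well above background ran from 59.7% to 69.9%. Mutant replicate 1 stood apart from the other 7 arrays: its mean correlation with the others across genes was 0.978, against 0.990 to 0.991. The Rfx6 probe did not separate the groups (-3.32, -3.20, -3.48 and -2.93 in control replicates 1 to 4, -5.52, -3.37, -3.02 and -3.02 in mutant replicates 1 to 4, where replicate 1 was not well above background), so it does not check the labels. Gut hormone genes did separate the groups: 8 of 8 passed the test, all lower in the mutants, with a median log2 difference of -3.70. Levels are given throughout on a log2 scale on which the 75th percentile of each array is 0, and a difference is the mutant mean minus the control mean on that scale. In RNA from whole tissue, fewer cells of a type and less RNA per cell cannot be told apart.

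Between the groups, 0 of the 37 genes passed limma's test at a Benjamini-Hochberg adjusted p of 0.05 over all genes, against 0.0592% of all genes tested (15 genes; 0.00394% higher and 0.0552% lower). At an unadjusted p under 0.05 there were 2, both higher in the mutants, against 5.33% of all genes (3.18% higher, 2.15% lower), and the other 35 members did not reach that limit. The same 2, Slc27a2 and Scarb1, were the members whose 4 mutant arrays all lay above the 4 control arrays, against 4.67% of all genes with groups that did not overlap (3.04% higher, 1.62% lower). The median difference of the 37 was 0.044, against 0.030 for all genes, and 24 of 37 lay above 0, against 57.1% of all genes. The differences ran from -0.35 (Acsl3) to 1.13 (Slc27a2), and 33 of 37 were under 0.2 in either direction. A difference of at least 2-fold was seen for 1 of 37, Slc27a2, against 0.702% of all genes.

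The sign of the median rested on 1 array and on the scaling. Without mutant replicate 1 the median was -0.062 with 11 of 37 above 0, while 50.5% of all genes lay above 0, and after quantile normalisation or in the deposited value table it was -0.060 or -0.035 with 14 of 37 above 0. The limits of the measurement were narrower than 2-fold for nearly all members: the 95% interval of the difference lay within 2-fold either way for 36 of 37, all but Slc27a2, and within 1.5-fold for 28 of 37. The count of members whose groups did not overlap moved from 2 to 4 without control replicate 1 (Ppara and Soat2 joined, higher), without mutant replicate 1 (Npc1l1 and Plin3 joined, lower) or without mutant replicate 4 (Acsl3, lower, and Lipe, higher, joined). With those 7 arrays the share of all genes without overlap was 6.80%, 8.00% and 10.5%. After quantile normalisation the count was 3, with 1 of them higher in the mutants, against 5.30% of all genes. In the deposited value table it was also 3 with 1 higher, against 5.14%. In these 2 alternatives limma gave 4 members at an unadjusted p under 0.05, against 6.27% and 6.45% of all genes.

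**Figure D1:**
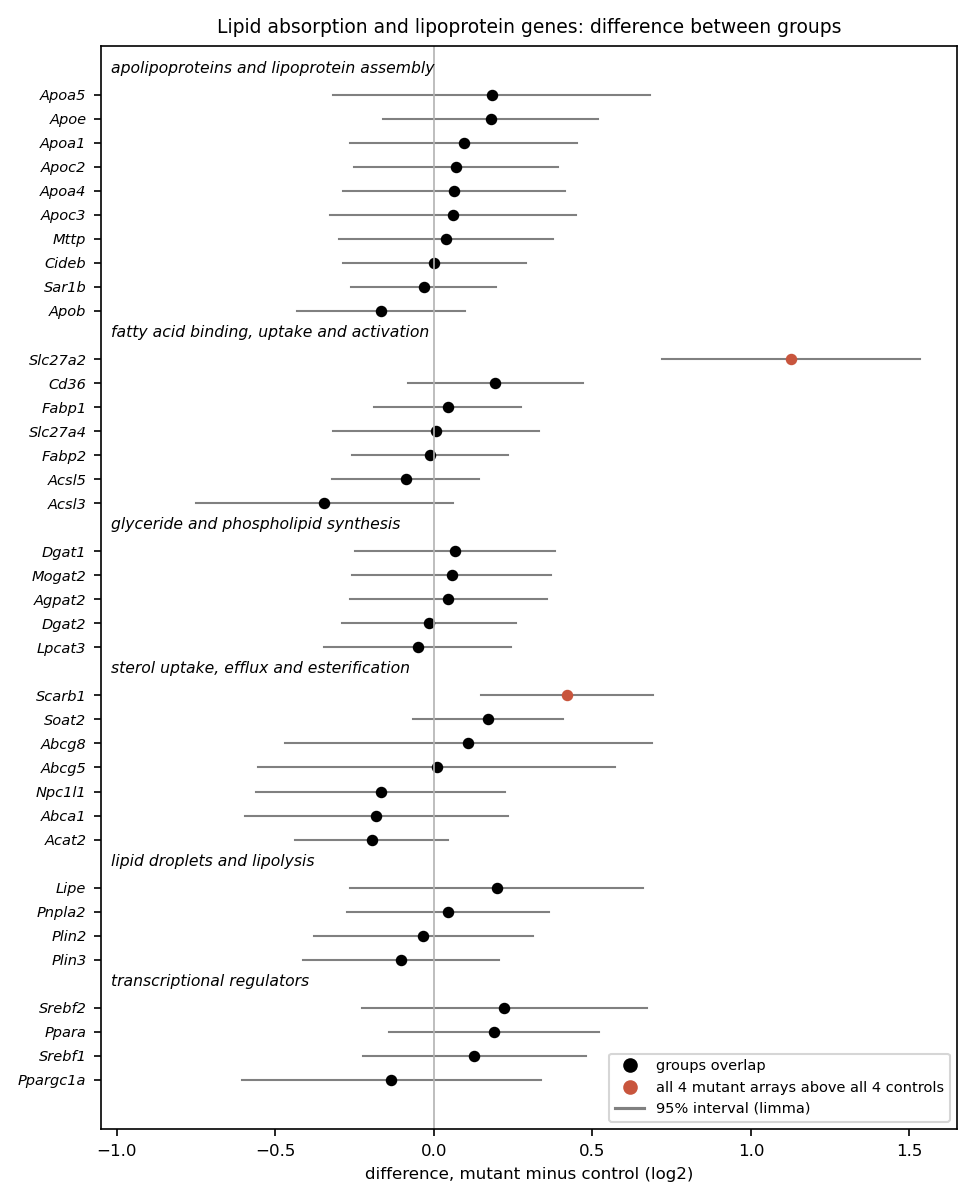
Log2 difference, mutant minus control, for each of the 37 genes in 6 role groups, with the 95% interval of the limma fit (n = 4 arrays in each group). Orange points, Slc27a2 at 1.13 and Scarb1 at 0.42, are the 2 genes whose mutant arrays all lay above the controls. The other 35 lie between -0.35 and 0.22.

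Of the apolipoproteins and the proteins that assemble lipoproteins, 0 of 10 passed the test. The median difference was 0.062, with 8 of 10 above 0, and it turned to -0.061 after quantile normalisation, -0.039 in the deposited value table and -0.057 without mutant replicate 1, each with 2 of 10 above 0. Apob, the structural protein of the chylomicron (probe at chr12:8012697-8012756, build mm9), was at 5.58, 5.41, 5.41 and 5.38 in control replicates 1 to 4 and at 5.18, 5.55, 5.11 and 5.28 in mutant replicates 1 to 4. Mutant replicate 2 lay within the control range and the other 3 below all controls, for a difference of -0.17 (SE 0.12, limma adjusted p = 0.821). Its second probe differed by -0.27, also with overlapping groups. Mttp, the transfer protein that loads lipid onto Apob, was at 6.24, 5.87, 6.14 and 5.94 in the controls and at 6.39, 6.19, 5.95 and 5.82 in the mutants. Its highest and lowest values of all 8 arrays both came from mutants, replicates 1 and 4, and the difference was 0.039 (SE 0.15, limma adjusted p = 0.952).

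Apoa1, Apoc3, Apoa4 and Apoa5 lie side by side on chromosome 9. By the mm9 positions of their probes, Apoa1 and Apoc3 are 3.15 kb apart, Apoc3 and Apoa4 8.47 kb, and Apoa4 and Apoa5 29.5 kb. Apoa4, a chylomicron protein made by enterocytes, was read by a probe of 60 bases whose position spans 744 bases of genome (chr9:46049661-46050404). A junction between exons would give such a span, but exon annotation was not used. The probe is shown here as an example of what was hybridised.
Apoa4: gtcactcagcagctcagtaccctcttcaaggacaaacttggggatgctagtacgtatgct
Apoa4 was at 8.07, 8.17, 8.44 and 8.08 in control replicates 1 to 4 and at 8.57, 8.33, 8.21 and 7.91 in mutant replicates 1 to 4, and Apoa4 differed by 0.064 (SE 0.15, limma adjusted p = 0.916). Apoa1, the main protein of HDL (chr9:46037921-46037980), was at 7.02, 6.84, 7.03 and 6.83 in the controls and at 7.42, 7.04, 6.99 and 6.65 in the mutants. Apoc3, an inhibitor of triglyceride clearance (chr9:46041134-46041193), was at 7.67, 7.77, 7.94 and 7.79 in the controls and at 8.30, 7.93, 7.69 and 7.48 in the mutants. In these 3 genes mutant replicate 1 was the highest and mutant replicate 4 the lowest of all 8 arrays, with the controls between them, and the differences of Apoa1 and Apoc3 were 0.094 (SE 0.16) and 0.060 (SE 0.17). The second probe of Apoc3 had the opposite sign (-0.028), the only one of 8 members with several probes where that was so. Apoa5, which promotes triglyceride clearance and is known mostly from liver (chr9:46079943-46080002), was at -5.53, -5.14, -5.03 and -4.73 in the controls and at -5.17, -4.44, -5.25 and -4.85 in the mutants, with overlapping groups.

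Apoc2, the cofactor of lipoprotein lipase, and Apoe, a ligand of lipoprotein receptors, have probes 24.6 kb apart on chromosome 7. Apoc2 was at 8.22 ± 0.067 (SD, n = 4) in the controls and 8.29 ± 0.28 in the mutants, and Apoe at 4.59 ± 0.13 and 4.77 ± 0.28. The difference of Apoe, 0.18 (SE 0.15, limma adjusted p = 0.821), had the same sign in all 18 alternatives (0.046 to 0.26) and was within the spread of the mutant arrays. Sar1b, the GTPase that packs chylomicrons into transport vesicles, differed by -0.032 (SE 0.10), and Cideb, which adds lipid to nascent particles, by 0.0016 (SE 0.13).

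Of the genes for fatty acid binding, uptake and activation, 0 of 7 passed the test, with a median difference of 0.0068 and 4 of 7 above 0. That median was below 0 in 6 of 18 alternatives, among them -0.089 after quantile normalisation, -0.097 in the deposited value table and -0.0098 without mutant replicate 1. Slc27a2, a fatty acid transport protein and very-long-chain acyl-CoA synthetase known best from liver and kidney (chr2:126413890-126413949, mm9), was at 0.31, -0.061, -0.15 and 0.36 in control replicates 1 to 4 and at 1.67, 1.21, 1.06 and 1.01 in mutant replicates 1 to 4. Every mutant array lay above every control, and the gap between the nearest arrays was wider than the range within the controls. The means were 0.11 ± 0.26 and 1.24 ± 0.30 (SD, n = 4 each), a difference of 1.13 (SE 0.18, 95% interval 0.72 to 1.53) or 2.18-fold. Its limma adjusted p was 0.135, which misses the threshold. Over 18 alternatives the difference was 0.98 to 1.21 and the adjusted p 0.0335 to 0.421, and it passed in 2 of them, normexp background correction (0.0438) and array weights (0.0335), where mutant replicate 1 counted with a weight of 0.117. Without mutant replicate 1, its highest array, the difference was 0.98 (limma adjusted p = 0.130).

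The other members of this group showed smaller differences, all with overlapping groups. Acsl3, an acyl-CoA synthetase of lipid droplets and the endoplasmic reticulum (chr1:78703500-78703559), was at 2.30, 2.14, 2.32 and 1.94 in control replicates 1 to 4 and at 1.41, 1.89, 1.78 and 2.25 in mutant replicates 1 to 4. Mutant replicates 1, 2 and 3 lay below all controls and mutant replicate 4 within their range, for a difference of -0.35 (SE 0.18, limma adjusted p = 0.821), the largest negative one of the 37. Acsl5, the other synthetase, differed by -0.089 (SE 0.10). Cd36, a fatty acid carrier of the cell surface, was at 2.08, 1.96, 2.28 and 2.07 in the controls and at 2.16, 2.43, 2.48 and 2.10 in the mutants, a difference of 0.19 (SE 0.12, limma adjusted p = 0.821) that was positive in all 18 alternatives (0.13 to 0.31). Slc27a4, the transport protein best known from enterocytes, was at -0.33 ± 0.11 (SD, n = 4) in the controls and -0.32 ± 0.27 in the mutants. The cytosolic binding proteins Fabp1 and Fabp2 had small standard errors: Fabp1 was at 8.44 ± 0.062 and 8.48 ± 0.16, a difference of 0.043 (95% interval -0.19 to 0.27), and Fabp2 at 9.0 ± 0.058 and 8.99 ± 0.18, a difference of -0.013 (95% interval -0.26 to 0.23).

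**Figure D2:**
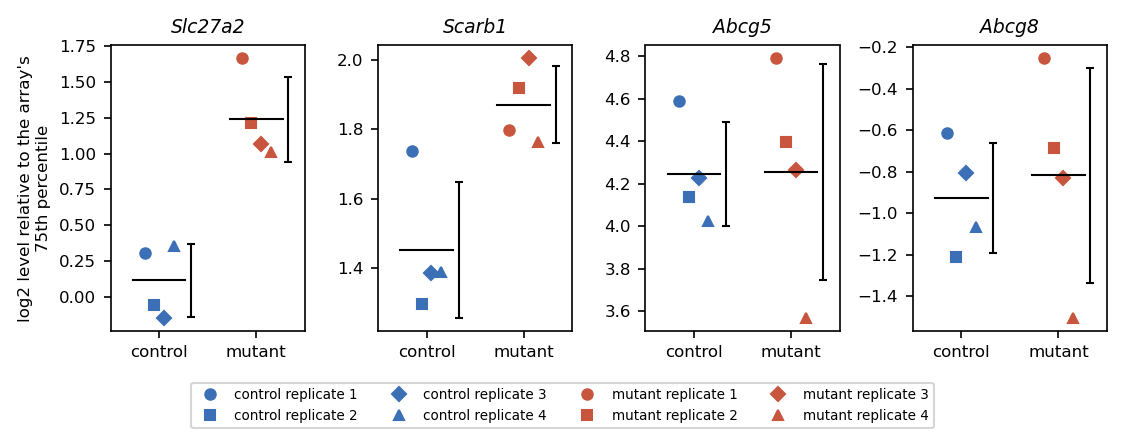
Scaled log2 level (75th percentile of the array at 0) in each of the 8 arrays for Slc27a2, Scarb1, Abcg5 and Abcg8, with the mean (line) and SD (bar) of 4 control and 4 mutant arrays. Each panel has its own scale. All mutants lie above all controls for Slc27a2 and Scarb1, and in the Abcg5 and Abcg8 panels mutant replicate 1 is the highest and mutant replicate 4 the lowest of the 8.

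Of the genes for glyceride and phospholipid synthesis, 0 of 5 passed, and their differences, -0.051 to 0.066, were the narrowest range of the 6 role groups. Mogat2, which joins a fatty acid to monoglyceride in the main intestinal route (chr7:106367601-106367660), was at 7.46, 7.26, 7.46 and 7.42 in control replicates 1 to 4 and at 7.83, 7.42, 7.23 and 7.34 in mutant replicates 1 to 4. Mutant replicate 1 was the highest of the 8 arrays and the other mutants lay within or next to the control range, for a difference of 0.056 (SE 0.14, 95% interval -0.26 to 0.37). Dgat1 and Dgat2, which add the last fatty acid of triglyceride, differed by 0.066 (SE 0.14) and -0.016 (SE 0.12). The probes of Dgat2 and Mogat2 are neighbours, 65.3 kb apart on chromosome 7. Agpat2, of the phosphatidic acid route, differed by 0.046 (SE 0.14), and Lpcat3, which remodels membrane phospholipids, by -0.051 (SE 0.13). The group median of 0.046 turned to -0.081 after quantile normalisation, -0.078 in the deposited value table, -0.030 with array weights and -0.085 without mutant replicate 1, where all 5 lay below 0.

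Of the genes for sterol uptake, efflux and esterification, 0 of 7 passed, with a median difference of 0.0097 and 4 of 7 above 0. The median was below 0 in 6 of 18 alternatives, among them -0.017 after quantile normalisation, -0.030 in the deposited value table and -0.080 without mutant replicate 1. Scarb1, the HDL receptor, also present on the enterocyte brush border (chr5:125757483-125757542), was at 1.74, 1.30, 1.38 and 1.39 in control replicates 1 to 4 and at 1.80, 1.92, 2.00 and 1.76 in mutant replicates 1 to 4. All mutants lay above all controls, but mutant replicate 4 lay only just above control replicate 1. The means were 1.45 ± 0.20 and 1.87 ± 0.11 (SD, n = 4 each), so that Scarb1 differed by 0.42 (SE 0.12, limma adjusted p = 0.710). It passed in 0 of 18 alternatives, over which the difference was 0.37 to 0.52. The groups overlapped after quantile normalisation, in the deposited value table and on the second Scarb1 probe, where the difference was 0.34.

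Npc1l1, the cholesterol importer of the brush border (chr11:6111461-6111520), was at 4.07, 3.72, 4.21 and 3.72 in control replicates 1 to 4 and at 4.17, 3.67, 3.58 and 3.61 in mutant replicates 1 to 4. Mutant replicates 2, 3 and 4 lay below all controls and mutant replicate 1 at the upper end of them, for a difference of -0.17 (SE 0.17, limma adjusted p = 0.823), which was negative in all 18 alternatives and -0.31 without mutant replicate 1. Abcg5 and Abcg8, the paired subunits of the pump that returns sterols to the lumen, start head to head as shown above. Abcg5 was at 4.59, 4.14, 4.23 and 4.03 in the controls and at 4.79, 4.40, 4.27 and 3.57 in the mutants, and Abcg8 at -0.62, -1.21, -0.81 and -1.07 in the controls and at -0.25, -0.68, -0.83 and -1.5 in the mutants. Both genes had their highest value in mutant replicate 1 and their lowest in mutant replicate 4, and the differences were 0.0097 (SE 0.25) and 0.11 (SE 0.25), within the spread of either group. Abca1, which exports cholesterol to HDL, was at -0.13, -0.10, -0.39 and -0.36 in the controls and at -0.96, -0.20, -0.38 and -0.16 in the mutants, where replicate 1 lay far below the other 7 arrays, for a difference of -0.18 (SE 0.18) that was -0.0032 without that array.

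Soat2 esterifies cholesterol for chylomicrons, and its protein is often called ACAT2, whereas the mouse symbol Acat2 stands for the cytosolic thiolase that opens sterol synthesis. Soat2 was at 4.18 ± 0.094 (SD, n = 4) in the controls and 4.35 ± 0.15 in the mutants, a difference of 0.17 (SE 0.10, limma adjusted p = 0.821) that was positive in all 18 alternatives. Acat2 (chr17:13136482-13136541) was at 0.81, 0.87, 1.08 and 1.04 in control replicates 1 to 4 and at 0.89, 0.81, 0.74 and 0.58 in mutant replicates 1 to 4. Mutant replicates 3 and 4 lay below all controls and the other two within or next to the control range, for a difference of -0.20 (SE 0.11, limma adjusted p = 0.821), the second most negative of the 37 and negative in all 18 alternatives.

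Of the genes for lipid droplets and lipolysis, 0 of 4 passed, with a median of 0.0054. It was below 0 in 7 of 18 alternatives, among them -0.052 after quantile normalisation, -0.059 in the deposited value table and -0.11 without mutant replicate 1. Plin2 and Plin3 coat droplets, and Pnpla2 and Lipe cut stored triglyceride. Plin2 was at 5.83, 5.77, 6.19 and 5.80 in the controls and at 6.18, 5.81, 5.57 and 5.90 in the mutants, a difference of -0.033 (SE 0.15). Plin3 was at 6.70, 6.70, 6.79 and 6.76 in the controls and at 6.98, 6.63, 6.33 and 6.59 in the mutants: the controls lay close together, 3 mutants lay below them all and mutant replicate 1 above them all, for a difference of -0.10 (SE 0.14). It was -0.22 without mutant replicate 1 and -0.00086 without mutant replicate 3. Lipe was at -1.74 ± 0.17 (SD, n = 4) in the controls and -1.54 ± 0.42 in the mutants, and Pnpla2 at 2.97 ± 0.12 and 3.01 ± 0.26.

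Of the transcriptional regulators, 0 of 4 passed, with a median of 0.16 that stayed above 0 in all 18 alternatives (0.054 to 0.22). Ppara, a receptor that turns on genes of fatty acid use, was at 2.82, 2.35, 2.47 and 2.46 in control replicates 1 to 4 and at 3.03, 2.71, 2.55 and 2.57 in mutant replicates 1 to 4. Control replicate 1 lay among the mutants and the other 3 controls below them all, for a difference of 0.19 (SE 0.15, limma adjusted p = 0.821), with 0.27 and 0.23 on its other probes. Srebf1 and Srebf2, regulators of fatty acid and sterol synthesis, differed by 0.13 (SE 0.15) and 0.22 (SE 0.20). Ppargc1a, a coactivator of Ppara, had its lowest value of the 8 arrays in mutant replicate 1, was highest of the mutants in replicate 3, and differed by -0.13 (SE 0.21).

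Within a group, many members shared the order of the arrays. Mutant replicate 1 was the highest mutant array for 27 of 37 members (73.0%), against 54.6% of all genes, and mutant replicate 4 the lowest for 22 of 37 (59.5%), against 27.1%. Both held for 19 of 37 (51.4%), against 19.6% of all genes. Mutant replicate 1 was the lowest mutant for 3 of 37, Acsl3, Abca1 and Ppargc1a (8.11%, against 25.5% of all genes), and lay between the others for Apoa5, Apob, Fabp1, Fabp2, Cd36, Scarb1 and Srebf2. The median member deviation of mutant replicate 1 from the other mutants was 0.42, against 0.19 for all genes. The SD of the mutants was above that of the controls for 34 of 37 members (91.9%), against 73.6% of all genes, and without mutant replicate 1 for 21 of 37 (56.8%), against 46.3%. Among the controls, replicate 3 was the highest for 21 of 37 members (56.8%), against 28.6% of all genes. Control replicate 2, the Rfx6 fl/fl control, was the lowest for 15 of 37 (40.5%), against 23.5% of all genes. Whether its genotype bears on this was not tested. Enterocyte markers outside the 37 genes moved with this order: mutant replicate 1 was the highest mutant for 9 of 10 and mutant replicate 4 the lowest for 6 of 10. Their part in the result was not tested. The members share RNA samples and arrays, so these counts are descriptions.

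**Figure D3:**
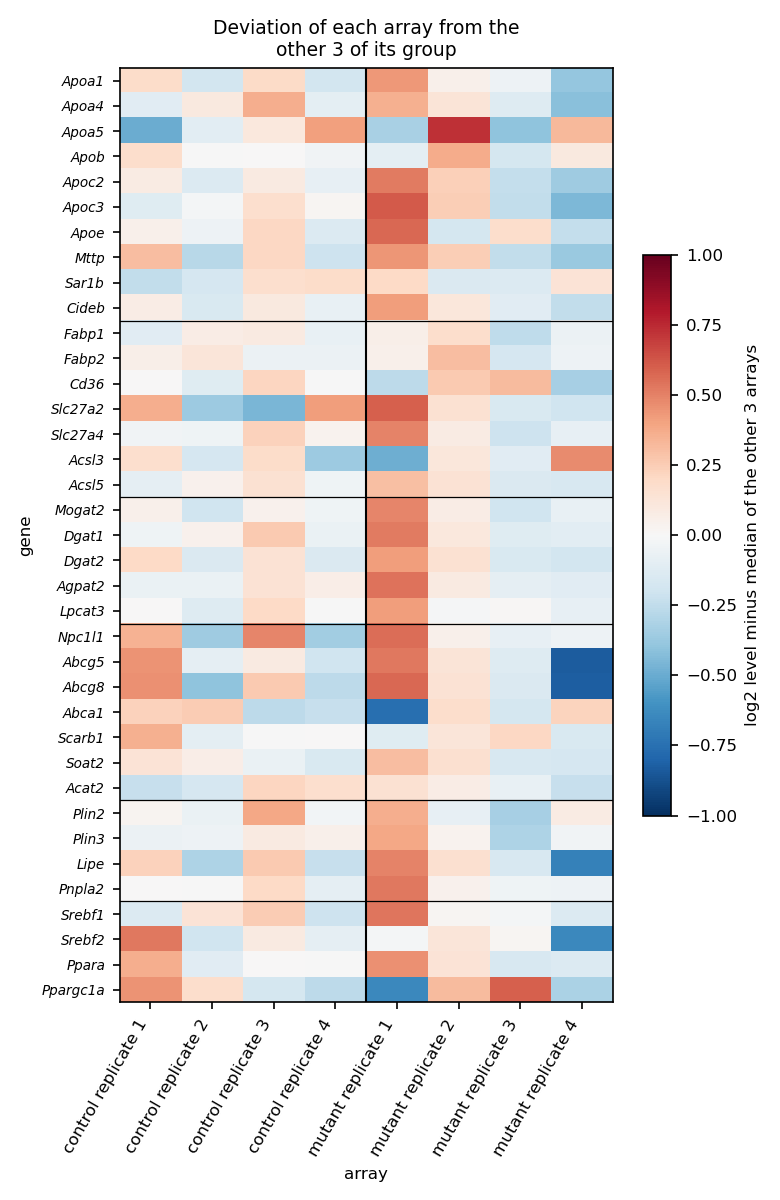
Log2 level of each of the 37 genes in each array minus the median of the other 3 arrays of its group, by role group, with the 4 controls on the left and the 4 mutants on the right. Most genes are red (higher) in mutant replicate 1 and blue (lower) in mutant replicate 4. In mutant replicate 1, Acsl3, Abca1 and Ppargc1a are the bluest, and Apoa5, Cd36, Scarb1, Apob and Srebf2 also lie below 0.

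Genes of the neighbouring lipid pathways were read from 6 lists with 101 genes, 99 of them tested, and 0 of 99 passed limma's test (4 higher and 7 lower at an unadjusted p under 0.05, against 3.18% and 2.15% of all genes). Groups did not overlap for 3 of the 99 higher and 8 lower in the mutants, against 3.04% and 1.62% of all genes. The lower ones were 3 of 20 in sterol synthesis, 2 of 10 in fatty acid synthesis and 3 of 24 acyl-CoA and glyceride enzymes. The higher ones were 1 of 16 further apolipoprotein and secretion genes and 2 of 16 in fatty acid oxidation. Genes of sterol synthesis and the LDL receptor lay mostly lower in the mutants: the median difference was -0.21, 3 of 20 were above 0 against 57.1% of all genes, and the median was below 0 in all 18 alternatives (-0.22 to -0.18). Sc5d, of the last steps of cholesterol synthesis, was at 3.65, 3.33, 3.48 and 3.42 in control replicates 1 to 4 and at 3.18, 3.16, 2.70 and 3.24 in mutant replicates 1 to 4, and Sc5d differed by -0.40 (SE 0.14, limma adjusted p = 0.821). Its groups did not overlap, nor did those of Fdps (-0.27) and Sqle (-0.21), which are named after their values were seen, but after median centring 0 of the 20 were free of overlap. Dhcr7, which makes cholesterol from its last precursor, differed by -0.40 (SE 0.23), with overlapping groups.

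Genes of fatty acid synthesis and desaturation had a median of -0.15 with 1 of 10 above 0, against 57.1% of all genes, and the median was below 0 in all 18 alternatives. Elovl6, which lengthens fatty acids and whose groups did not overlap, was at 3.77, 3.61, 3.65 and 3.6 in the controls and at 2.56, 3.43, 3.56 and 3.48 in the mutants, a difference of -0.40 (SE 0.21) that missed the threshold (limma adjusted p = 0.821) and was -0.17 without mutant replicate 1. The groups of Elovl6 did overlap after quantile normalisation and in the deposited value table. Fasn, the fatty acid synthase, was at -0.55, -0.51, -0.56 and -0.54 in the controls and at -0.60, -0.68, -0.99 and -0.79 in the mutants, a difference of -0.22 (SE 0.10), with groups that did not overlap. Genes of fatty acid oxidation and ketogenesis lay mostly higher: the median was 0.12, and 14 of 16 were above 0, against 57.1% of all genes. The median was above 0 in all 18 alternatives (0.030 to 0.16). Pdk4, a kinase that spares glucose when fat is burned, was at -0.27, -0.67, -0.64 and -0.47 in control replicates 1 to 4 and at 0.69, 0.59, 0.82 and 0.19 in mutant replicates 1 to 4, all mutants above all controls. The difference was 1.09 (SE 0.15, limma adjusted p = 0.084), and it passed in 4 of 18 alternatives, normexp background correction, the deposited value table, array weights and the fit without mutant replicate 4. Hadhb (0.15), named after its values were seen, also had mutants above all controls.

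Further apolipoproteins and secretion genes had a median of 0.059 with 12 of 16 above 0, turning to -0.018 with array weights and -0.023 without mutant replicate 1. Apom, an HDL protein that carries sphingosine phosphate, was at 0.52, 0.64, 0.18 and 0.57 in control replicates 1 to 4 and at 1.98, 1.37, 1.46 and 0.84 in mutant replicates 1 to 4, all mutants above all controls, and it differed by 0.93 (SE 0.23, limma adjusted p = 0.514). Apoa2, the second protein of HDL, was at 1.5, 1.57, 1.57 and 1.55 in the controls and at 2.79, 2.08, 2.23 and 1.57 in the mutants: the controls lay close together, and mutant replicate 4 lay among them. Further acyl-CoA and glyceride enzymes had a median of -0.073 with 9 of 24 above 0, below 0 in all 18 alternatives. Lpin1, the phosphatidate phosphatase, was at 0.30, 0.19, 0.37 and 0.27 in the controls and at -0.11, -0.29, -0.54 and -0.041 in the mutants, all mutants below all controls, and it differed by -0.53 (SE 0.12, limma adjusted p = 0.465). The fatty acid binding proteins Fabp5 (-0.31) and Fabp4 (-0.26), named after their values were seen, also had mutants below all controls. Mogat1 was at -4.0, -4.72, -4.93 and -5.35 in the controls and at -1.78, -2.17, -2.36 and -5.92 in the mutants and was well above background on 3 arrays of each group. Its difference was 1.69 (SE 0.84, limma adjusted p = 0.821), and without mutant replicate 4 it was 2.65 (limma adjusted p = 0.0379), while it was 1.02 with normexp background correction and 1.03 in the deposited value table (limma adjusted p = 0.813 and 0.716). Further lipid nuclear receptors and partners had a median of 0.062 with 10 of 13 above 0, which turned to -0.058 without mutant replicate 1. Ppargc1b and Rxra, with the largest differences, stood at 0.30 (SE 0.12) and 0.21 (SE 0.18).

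**Figure D4:**
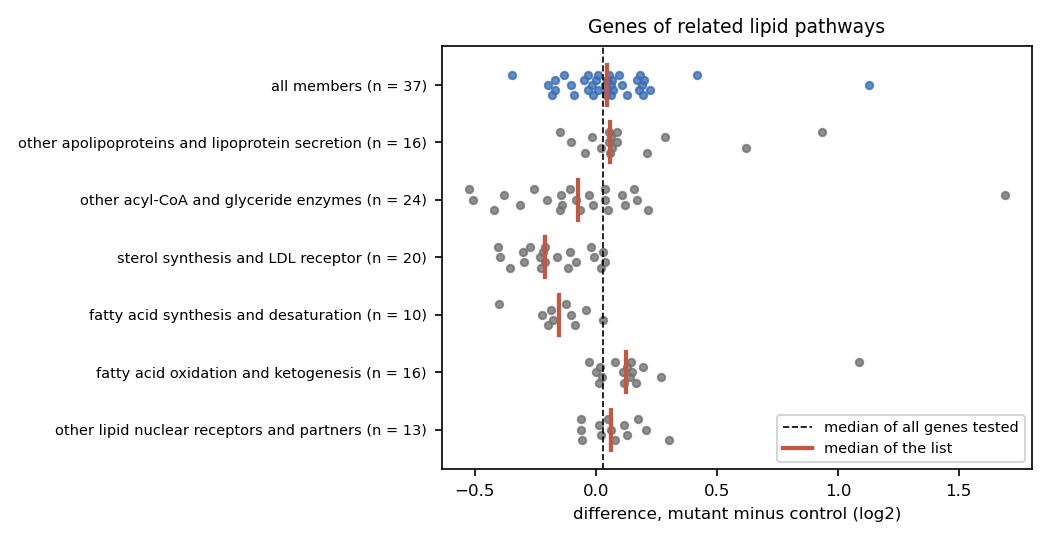
Log2 difference, mutant minus control, of the 37 genes (blue) and of 6 lists of related lipid genes (grey), 1 point per gene, with the median of each list (orange line) and the median of all genes tested, 0.030 (dashed line). The lists of sterol synthesis, median -0.21, and fatty acid synthesis, median -0.15, lie mostly left of the dashed line.

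Markers of other cell types that could carry lipid genes were read beside these results, and their part in them was not tested. Enterocyte markers were well above background on all 8 arrays, with 0 of 10 passing and a median of 0.063, which was below 0 in 3 of 18 alternatives. Their summed level, in multiples of the 75th percentile, was 594 to 673 in the controls and 575 to 852 in the mutants, with the highest sum in mutant replicate 1. The largest difference was that of Treh, a brush-border disaccharidase (0.29, SE 0.26). Of 7 distal intestine markers 0 passed and 6 were above 0, with summed levels of 219 to 248 in the controls and 246 to 392 in the mutants. Fabp6, the ileal bile acid binding protein, was at 2.30, 4.10, 3.43 and 4.5 in control replicates 1 to 4 and at 6.48, 6.10, 5.81 and 5.25 in mutant replicates 1 to 4, all mutants above all controls, and it differed by 2.33 (SE 0.46, limma adjusted p = 0.295). Over 18 alternatives the difference was 1.90 to 2.63, and it passed in none of the 18. Of 10 liver markers tested 0 passed and 5 were above 0, with summed levels of 198 to 253 in the controls and 178 to 240 in the mutants. Alb was dim (-2.63, -5.35, -2.84 and -4.37 in the controls, -2.59, -3.90, -7.18 and -5.01 in the mutants, not well above background on 1 mutant array), and Afp, which the fetal gut also makes, differed by -0.52 (SE 0.15), with mutants below all controls. Afp was named after its values were seen.

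All 7 pancreatic acinar markers tested, of 9 listed, were above 0 and 0 passed (Amy2a5 or Cela2a passed in 4 of 18 alternatives), with summed levels of 4.86 to 6.56 in the controls and 6.94 to 19.5 in the mutants. Amy2a5, an amylase well above background on 3 of 4 control arrays and 4 of 4 mutant arrays, was at -5.14, -6.64, -1.88 and -4.31 in the controls and at 1.09, 0.16, 1.83 and 3.29 in the mutants, a difference of 6.09 (SE 1.00, limma adjusted p = 0.150). Of the adipocyte markers Adipoq, Lep and Ucp1 were not well above background on any array, and 0 of 3 tested passed. The summed level of the 7 adipocyte markers was 31.5 to 53.5 in the controls and 49.2 to 87.1 in the mutants, nearly all of it from Pck1, a gene of glucose synthesis also made by enterocytes, which differed by 0.80 (SE 0.22, limma adjusted p = 0.655). At an unadjusted p under 0.05, limma gave 6 acinar, 3 distal and 1 adipocyte marker higher, 2 liver markers lower and 0 enterocyte markers, against 3.18% of all genes higher and 2.15% lower. Groups did not overlap for 4 acinar and 2 distal markers, higher, and 2 liver markers, lower, against 3.04% and 1.62% of all genes.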

How the data were processed

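Expression in small intestine was measured on 8 single-colour Agilent arrays. TRI-reagent served for RNA extraction and 100 ng of RNA was labelled with Cy3, per the labels' protocols. Per the file headers, the authors read 1 slide in 1 scan with Feature Extraction 10.10.1.1 and deposited linear spot intensity values, annotated on mm9; the processed intensity used here is background-corrected within each array and not normalised between arrays. The authors also deposited a value table whose processing is not given in the sources used here. Its columns followed the median spot intensity of the matching array (rank correlation 0.99997 to 0.99998), and it lacked 7 of 62976 rows. It was used on a log2 scale as an alternative.

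For the values here, the processed intensity was divided by its 75th percentile over the 59305 non-control spots of the array, and log2 was taken. Outlier spots (117 to 157 per array) were left out, spots of a probe were averaged to 55681 probes, and the brightest probe stood for each gene name (10367 had several). A gene was tested if its probe was well above background on at least 4 of 8 arrays. The comparison of the groups used limma 3.58.1 (R 4.3.3), two-sided and without covariates. Its p-values were adjusted by Benjamini-Hochberg over the whole table, with a threshold of 0.05. The number of arrays, 4 in each group, limits the precision.

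The 37 members and all lists were chosen with earlier results of these data known. Named are every member, the 2 genes of each pathway list and the 1 gene of each marker list with the largest difference, and called list genes; 1 pathway gene under this rule is not reported here. The 8 hormone genes are given as a count. The alternatives were normexp background correction, quantile normalisation, median centring, the deposited table, no filter or a stricter one on dim probes, the mean over probes, the slide row or replicate number as a block, array weights, and leaving out each replicate. Array positions are mm9, whose exon annotation was not used here. Promoter sequence is RefSeq, GRCm38.p6, and probe accessions matched the same RefSeq symbol for 35 of 37 members, while 2 were not in the table.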

Additional observations from a re-analysis of the deposited data

Results flagged for a closer look

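Among 74 groups of 4 arrays (37 genes in 2 groups), 5 held 1 array whose gap to the nearest of the other 3 was large for the range of the group. The gap was 0.834 (Lpcat3) to 0.903 (Pnpla2) of that range. About 3.7 would be expected at a rate of 1 in 20 for normally distributed values. The members share arrays, so 5 against 3.7 is a description and no test. Mutant replicate 1 accounted for 3, high in each. Pnpla2, a triglyceride lipase, was at 3.40 there, against 2.86 to 2.91 in the other mutants. Npc1l1, the cholesterol importer, was at 4.17, against 3.58 to 3.67. Lpcat3, which remodels phospholipids, was at 5.12, against 4.64 to 4.72. In mutant replicate 4, Srebf2, the regulator of sterol synthesis, was at 0.19, against 0.82 to 0.93 in the other mutants. In control replicate 3, Plin2, a droplet coat protein, was at 6.19, against 5.77 to 5.83 in the other controls.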

How the results depend on the processing

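No member changed its call in 16 of 18 alternatives, and Slc27a2 passed in the other 2, which gives a member count of 1 with normexp background correction and 1 with array weights, and 0 in each fit that left out a replicate. The count over all genes, 15, was 27 with normexp background correction (8 higher, 19 lower), 42 with array weights (13 higher, 29 lower), 7 with the replicate number as a block, and 10 to 22 when each replicate was left out. The labels do not say whether replicate numbers pair the samples. Deviations of same-numbered arrays correlated at -0.092, 0.057, -0.071 and 0.091. Those of differently numbered arrays correlated at -0.20 to 0.24, and so few arrays cannot settle the pairing. The replicate block called 0 members, as did the main fit. The count of members without overlap was 2 to 4, and the median difference -0.062 to 0.10, when each replicate was left out. The cause of these changes was not tested.

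The sign of a difference held in all 18 alternatives for 16 members, 9 above 0 (Apoa5, Apoe, Cd36, Slc27a2, Scarb1, Soat2, Lipe, Srebf2 and Ppara) and 7 below (Apob, Acsl3, Acsl5, Npc1l1, Abca1, Acat2 and Plin3), although Abca1 was only -0.0032 without mutant replicate 1 and Plin3 only -0.00086 without mutant replicate 3. It changed for 21, none of them called, whose differences in the main fit ran from -0.13 (Ppargc1a) to 0.13 (Srebf1). Over the alternatives the differences reached 0.34 for Abcg8 and -0.28 for Ppargc1a. After quantile normalisation the changed differences were Apoa1 -0.026, Apoa4 -0.062, Apoc2 -0.060, Apoc3 -0.065, Mttp -0.069, Cideb -0.068, Fabp1 -0.089, Mogat2 -0.081, Agpat2 -0.014 and Abcg5 -0.017. In the deposited value table they were Apoa1 -0.034, Apoa4 -0.098, Apoc2 -0.076, Apoc3 -0.026, Mttp -0.044, Cideb -0.11, Fabp1 -0.097, Slc27a4 -0.0045, Mogat2 -0.078 and Abcg5 -0.030. With array weights they were Cideb -0.029, Fabp2 0.065, Slc27a4 -0.064, Mogat2 -0.014, Agpat2 -0.043, Pnpla2 -0.033 and Ppargc1a 0.078. With normexp background correction the changed one was Cideb -0.0099. With median centring it was Fabp2 0.0023. When each replicate was left out, the ranges that crossed 0 were Slc27a4 -0.12 to 0.087, Dgat2 -0.11 to 0.040, Mttp -0.062 to 0.13, Cideb -0.10 to 0.078, Fabp2 -0.097 to 0.047, Abcg5 -0.17 to 0.24, Sar1b -0.081 to 0.0063, Lpcat3 -0.16 to 0.0079, Plin2 -0.14 to 0.066 and Apoa1 -0.038 to 0.22. The others were Apoa4 -0.040 to 0.18, Apoc2 -0.052 to 0.16, Apoc3 -0.090 to 0.18, Mogat2 -0.070 to 0.13, Dgat1 -0.056 to 0.13, Agpat2 -0.085 to 0.10, Abcg8 -0.080 to 0.34, Pnpla2 -0.086 to 0.099, Srebf1 -0.014 to 0.20, Ppargc1a -0.28 to 0.024 and Fabp1 -0.013 to 0.11. All 37 members were well above background on all 8 arrays. Apoa5 had the largest control SD of the 37 (0.33), and its difference was 0.019 to 0.31 over the alternatives.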

Other observations

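Cell types of the gut wall outside the lipid pathways were read from further marker lists, where limma called 0 genes and 0 lay at an unadjusted p under 0.05, apart from 3 distal markers. Smooth muscle markers were above 0 for 7 of 7 genes (median 0.20, 0.051 to 0.27 over 18 alternatives), with Tagln, an actin-binding protein of contractile cells, at 0.26 (SE 0.16). Their summed level was 352 to 528 in the controls, where the lowest was control replicate 3, and 484 to 659 in the mutants. Endothelial markers were above 0 for 6 of 8 genes (median 0.13), with Kdr, a receptor of vascular growth factor, at 0.23 (SE 0.15). Macrophage markers were above 0 for 7 of 9 (median 0.096), with Lyz2, a lysozyme, at 0.38 (SE 0.18). Goblet cell markers were above 0 for 4 of 7 (median 0.042, below 0 in 4 of 18 alternatives and -0.054 without mutant replicate 1), with Zg16, a mucus lectin, at -0.20 (SE 0.16).

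Markers of the proximal intestine were above 0 for 3 of 6 tested genes (median -0.0032), with Adh1, an alcohol dehydrogenase, at 0.35 (SE 0.17, limma adjusted p = 0.821). Erythroid markers were above 0 for 2 of 5 tested genes (median -0.067), with Hbb-y, an embryonic globin, at -0.20 (SE 0.48). Among the distal markers, Lrp2, an endocytic receptor, had mutants above all controls (1.13, 1.76, 1.56 and 1.56 in the controls, 2.07, 2.33, 1.90 and 1.85 in the mutants) and a difference of 0.54 (SE 0.16, limma adjusted p = 0.821). Slc10a2 was the only distal marker below 0, at -0.32 (SE 0.47), with overlapping groups. Lrp2 and Slc10a2 were named after their values were seen.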
